A study of Thermothelomyces thermophilus with 18 samples.

Results

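Mycth_100068 is a gene of the thermophilic fungus Myceliophthora thermophila that the study describes as a protein of glycoside hydrolase family 11 (GH11), a family of xylanases. It is 1 of the 9109 genes in the deposited table, and it was picked because its transcript was very strongly raised on Avicel and was lost in the deletion strain after 6 h. Its levels in those contrasts are therefore given here as a description, without a test. The contrasts that the choice did not name, the deletion effect at 4 h on Avicel and on starch, were tested, although they share libraries with the contrasts that did. Their p-values are therefore not independent of the choice.

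Xylan is the main hemicellulose of many plant cell walls, a chain of xylose units that carries acetyl, arabinosyl and glucuronosyl side groups and lies against the cellulose fibrils. Endoxylanases such as those of GH11 cut the chain internally, β-xylosidases release xylose from the short products, and esterases and arabinofuranosidases take off the side groups. Filamentous fungi that live on plant biomass secrete these enzymes together with cellulases, and several of them switch on xylanase genes on cellulose as well as on xylan.

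The study asked how the transcription factor MtTRC-1 affects the genes of cellulose degradation. Total RNA of mycelium was sequenced from the wild type MtWT, strain ATCC 42464, and from ΔMttrc-1, a strain made in MtWT by CRISPR-Cas9 in which the Mttrc-1 gene was replaced by a neo resistance cassette. Both strains were pregrown at 45 °C on 2% glucose in Vogel's salts over 16 h and washed. They were then shifted either to 2% Avicel, which is purified microcrystalline cellulose, and sampled at 4 h and at 6 h, or to 2% starch and sampled at 4 h. The 6 groups held 3 libraries each, described in the study's methods as independent biological replicates. How many independent transformants stood behind the ΔMttrc-1 libraries is not given in the sources used here. No library was taken from mycelium on xylan or before the transfer, and none on starch at 6 h, so that Avicel at 6 h against starch at 4 h also carries a difference of time. Expression of the deleted gene is not analysed here.

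Total counts ranged from 17250057 to 24387079 per library, and 8573 genes passed the filter on low counts. Within groups, library pairs differed by more than sampling noise, with chi-square values per degree of freedom from 2.17 to 42.0, so that no library was counted as a copy of another. MtWT replicate 3 on Avicel at 4 h stood farthest from its group. The deletion effect at 4 h is therefore given with and without it. The actin gene (Mycth_2314852) and the elongation factor gene tef-1 (Mycth_2298136) passed the thresholds, which include an absolute log2 fold change over 1, in none of the 3 deletion comparisons. Small shifts were present. Actin gave −0.24 at 4 h and −0.16 at 6 h on Avicel and −0.28 on starch, each with an edgeR adjusted p under 0.05. For tef-1 the values were −0.12, 0.13 and −0.24 in the same order. Those at 6 h on Avicel and on starch had edgeR adjusted p of 0.0455 and 0.0013.

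The transcript of Mycth_100068 ranged from 0 counts in 1 starch library to 29847 counts in 1 Avicel library. In MtWT on Avicel for 4 h, the 3 libraries held 29847, 25056 and 26663 counts, or 1694, 1502 and 1466 CPM, a unit in which counts are expressed per library depth after TMM scaling. After 6 h on Avicel the MtWT libraries held 26336, 27323 and 23139 counts, or 1451, 1497 and 1399 CPM. The ranges of the 4 h and 6 h libraries overlapped, and every one of these 6 libraries gave between 0.114% and 0.142% of its counts to this single gene. In ΔMttrc-1 on Avicel for 4 h, there were 7310, 6244 and 5804 counts, or 403, 413 and 388 CPM. After 6 h the ΔMttrc-1 libraries held 380, 462 and 391 counts, or 14.2, 16.3 and 15.3 CPM. These 4 Avicel groups were tight, and the groups of ΔMttrc-1 overlapped neither each other nor MtWT.

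On starch the gene was close to the limit of detection. The MtWT libraries held 0, 7 and 15 counts, or 0, 0.299 and 0.531 CPM, and the count of 0 allows up to 0.123 CPM (3 counts). The ΔMttrc-1 libraries on starch held 5, 1 and 1 counts, or 0.200, 0.0442 and 0.0478 CPM. The starch groups of both strains overlapped. Such limits, and the intervals given below for ratios of counts, cover counting error only.

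**Figure D1:**
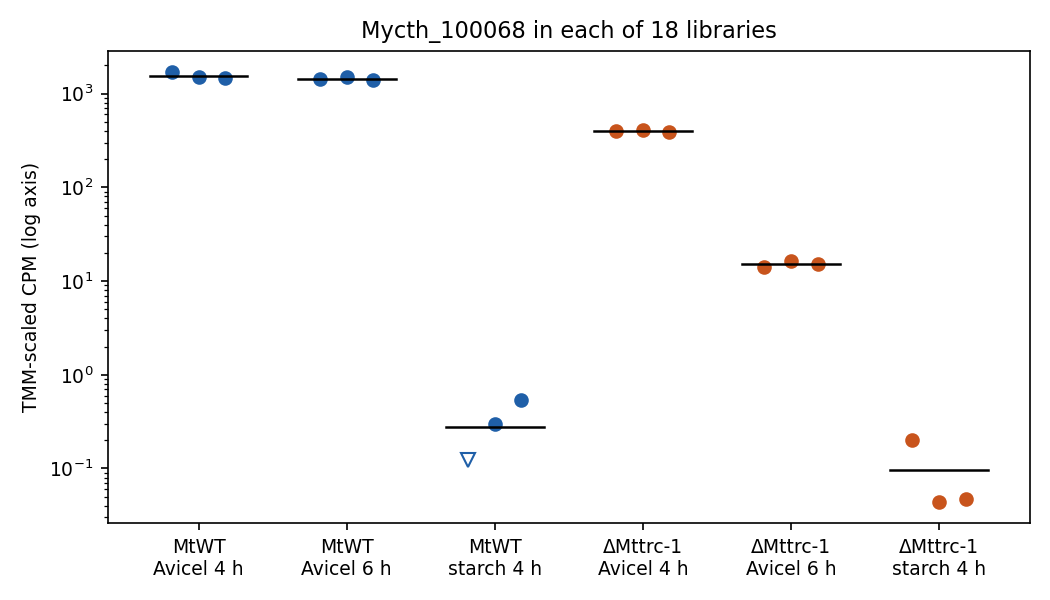
TMM-scaled CPM of Mycth_100068 (log axis) in each of the 18 libraries, with blue points for MtWT, orange points for ΔMttrc-1 and a black line at the mean of 3 libraries. The open triangle marks the MtWT starch library with 0 counts, drawn at its 3-count limit of 0.123 CPM. The Avicel groups of ΔMttrc-1 lie at 402 and 15.3 CPM, below the MtWT means of 1554 and 1449 CPM.

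By mean TMM-scaled CPM, the order of the groups from high to low was MtWT on Avicel at 4 h (1554 ± 123, SD, n = 3), MtWT on Avicel at 6 h (1449 ± 48.7), ΔMttrc-1 on Avicel at 4 h (402 ± 12.6), ΔMttrc-1 on Avicel at 6 h (15.3 ± 1.04), MtWT on starch (0.277 ± 0.266) and ΔMttrc-1 on starch (0.0975 ± 0.0891). Only the first and the last pair of neighbours in this order overlapped. The order of the first pair turned with the scale, since the deposited RPKM values, which are not adjusted for library composition, averaged 1476 ± 129 at 4 h and 1653 ± 46.5 at 6 h (n = 3 each).

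Set against all 9109 genes by mean RPKM, Mycth_100068 ranked 92nd in MtWT at 4 h and 79th at 6 h on Avicel. In ΔMttrc-1 it ranked 339th at 4 h, with 388 ± 16.6 RPKM, and 4630th at 6 h, with 22.3 ± 1.46 RPKM. The median gene of that last group stood at 23.0 RPKM, so that the gene had come down to a middling level. On starch it ranked 8505th in MtWT (0.383 ± 0.368 RPKM) and 8710th in ΔMttrc-1 (0.134 ± 0.122 RPKM).

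The question of the first test was whether ΔMttrc-1 already held less of this transcript at 4 h on Avicel. It did, at 25.8% of the MtWT level. The log2 fold change was −1.95 ± 0.09 (SE) with an adjusted p of 2.02e-12 in edgeR's quasi-likelihood test over all tested genes, and the 3 libraries of ΔMttrc-1 all lay below the 3 of MtWT. Without MtWT replicate 3 the value was −1.99. An exact two-sided permutation test on the 3 against 3 values gave p = 0.1, the smallest value that this design can reach. The MtWT libraries compared here also enter the Avicel induction for which the gene was picked, so neither p-value is independent of that choice. In bulk RNA a lower level cannot be told apart from fewer hyphal cells that express the gene. Ordered by log2 fold change, it was the 200th from the lowest of 8573 genes.

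On starch no difference passed the test. The 3 ΔMttrc-1 libraries held 7 counts in all against 22 in MtWT, a depth-corrected ratio of 0.353 with a 95% counting interval from 0.127 to 0.856. The fitted log2 fold change was −1.45 ± 0.77 (SE), with an adjusted p of 0.121 in edgeR and an exact two-sided permutation p of 0.4. This call depended on single libraries and on the tool. Leaving out the MtWT starch library with 0 counts (replicate 1) gave −1.998 with an edgeR adjusted p of 0.0019, and DESeq2 on all libraries gave −1.49 with an adjusted p of 0.0341. Leaving out the MtWT starch library with 15 counts (replicate 3) instead gave −0.50 with an edgeR adjusted p of 0.653. In 11 of 13 alternatives the difference stayed uncalled, but not all of these could have called it. A linear model (limma) on log2(RPKM + 1) gave −0.26. With MtWT at 0.383 RPKM, that scale could not reach the fold threshold. Another alternative tested against a fold change of 2, which is stricter. At this depth the starch comparison rests on few reads, and a difference of 1.45 on the log2 scale could not be separated from the spread between libraries.

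The remaining contrasts are those for which the gene was picked, or share libraries with them, and are described only. At 6 h on Avicel ΔMttrc-1 held 1.06% of the MtWT level, a log2 fold change of −6.57 ± 0.12 (SE) and the 5th lowest of 8573 genes. The step from 4 h to 6 h differed between strains. In MtWT the log2 change over time was −0.10, against a spread that overlapped, while in ΔMttrc-1 it was −4.71, the 27th lowest among all tested genes. The deletion effect was thereby 4.61 log2 units deeper at 6 h than at 4 h (−4.61 ± 0.14, SE), a difference that was the 44th lowest of 8573 genes. With scaling by library totals in place of TMM, the median of all genes in the 6 h deletion comparison moved from 0.01 to 0.36, and the 6 h deletion effect on Mycth_100068 was −6.21.

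Avicel against starch gave the largest ratios. The MtWT level on Avicel was 5367 times that on starch at 4 h (95% counting interval 3545 to 8565) and 5012 times at 6 h (3310 to 7997). In ΔMttrc-1 the ratio at 4 h was 3931 (1908 to 9778), and the intervals of both strains at 4 h overlapped. At 6 h in ΔMttrc-1 the ratio was 150 (72.5 to 373). These intervals leave out the spread between starch libraries, and single ones moved the fitted log2 values by more than 1.5 times in fold. Without MtWT starch replicate 3 the MtWT value was 13.31 in place of 12.36 at 4 h and 13.21 in place of 12.26 at 6 h. Without ΔMttrc-1 starch replicate 1 the mutant's was 12.92 in place of 11.86 at 4 h and 8.20 in place of 7.14 at 6 h. By fitted log2 fold change against starch, which depends on the prior count for so low a group, the gene was the 2nd highest of 8573 in MtWT at 4 h (12.36), the highest at 6 h (12.26), the 3rd highest in ΔMttrc-1 at 4 h (11.86) and the 8th highest at 6 h (7.14). The Avicel response of the deletion strain was thus large at both times, and its 4 h level was well above that at 6 h.

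The fall of Mycth_100068 can be read beside that of cbh-1 (Mycth_109566), the cellobiohydrolase that releases cellobiose from chain ends and a gene the study followed closely. Per length, in RPKM, Mycth_100068 stood at 19.0 ± 2.44% of cbh-1 in MtWT and at 19.3 ± 1.49% in ΔMttrc-1 at 4 h on Avicel (SD, n = 3 each). The ranges overlapped, and both genes had similar log2 fold changes in the 4 h deletion comparison (−1.95 for Mycth_100068 and −1.98 for cbh-1). At 6 h the ratio was 39.7 ± 1.48% in MtWT and 2.49 ± 0.13% in ΔMttrc-1. The cbh-1 transcript had a log2 fold change of −2.58 ± 0.05 (SE, edgeR adjusted p = 8.36e-24) in the 6 h deletion comparison. In ΔMttrc-1 the ratio was lower at 6 h than at 4 h, with no overlap between libraries. From 4 h to 6 h in ΔMttrc-1, the log2 change was −4.71 for Mycth_100068 and −1.77 for cbh-1. In MtWT, where the ratio was higher at 6 h, the changes were −0.10 and −1.17 in the same order.

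Among the genes of xylan breakdown, Mycth_100068 was the most abundant transcript on Avicel until the 6 h mutant libraries. A list of 13 other genes was made from the study's gene descriptions, available for some genes only. It holds backbone-cutting and side-group-removing enzymes, some of them known by family only. It also holds Mycth_103032, described as an arabinan endo-arabinosidase, whose named substrate is arabinan and not xylan. In RPKM summed over these 14 genes, Mycth_100068 made up 50.0% in MtWT at 4 h, 49.2% in ΔMttrc-1 at 4 h and 46.6% in MtWT at 6 h. In ΔMttrc-1 at 6 h its share was 5.46% and its place the 6th of 14, behind the xylanase gene Mycth_116553, which led with 141 RPKM. On starch it was the 13th in MtWT and the last in ΔMttrc-1.

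**Figure D2:**
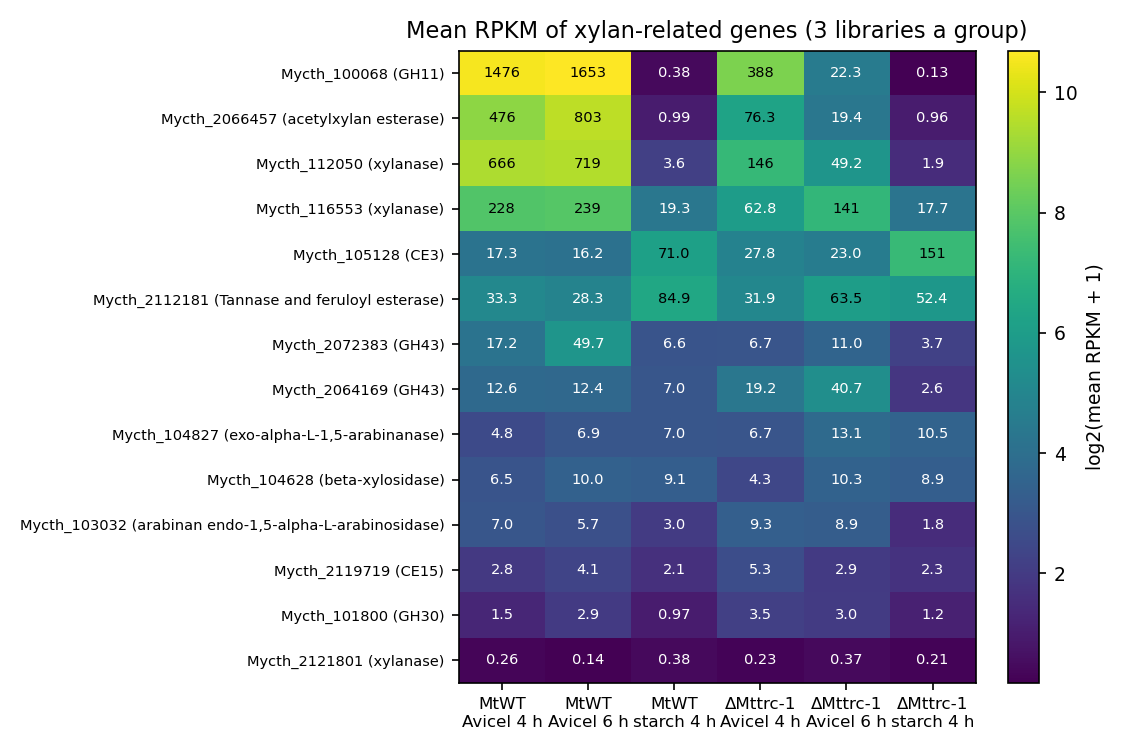
Mean RPKM of Mycth_100068 and the 13 genes of the xylan list in the 6 groups of 3 libraries, printed in each cell, with colour for log2(mean RPKM + 1) and genes ordered by their highest group mean. Mycth_100068 heads the list on Avicel with 1476 and 1653 RPKM in MtWT and 388 RPKM in ΔMttrc-1 at 4 h, and it falls to 22.3 RPKM in ΔMttrc-1 at 6 h.

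In the deletion comparison at 4 h on Avicel, 4 of the 12 listed genes that could be tested were called lower and 1 higher, at the thresholds of an edgeR adjusted p under 0.05 and an absolute log2 fold change over 1. Across all tested genes 7.42% were called lower and 5.83% higher. The list's median log2 fold change was 0.15, beside −0.02 for all genes, so the list as a whole did not move down. After Mycth_100068, 3 of these 4 were the listed genes with the highest RPKM in MtWT at 4 h. The xylanase gene Mycth_112050 averaged 1285 ± 97.4 CPM in the wild type against 277 ± 14.7 CPM in the mutant (SD, n = 3 each), a log2 fold change of −2.21. The acetylxylan esterase gene Mycth_2066457, whose product takes off acetyl groups, had a log2 fold change of −2.67. The xylanase gene Mycth_116553 gave −1.88, and Mycth_2072383 of GH43, a family that holds β-xylosidases and arabinofuranosidases, gave −1.38. The GH30 gene Mycth_101800 was called higher (1.24), at no more than 6.56 CPM in any library of this comparison.

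At 6 h on Avicel, 4 of the 12 were again called lower, against 12.9% of all tested genes, and 1 was called higher, against 8.55%. The list's median was −0.29, beside 0.01 for all genes. The 4 genes were those called lower at 4 h. Acetylxylan esterase Mycth_2066457 fell by 5.73 on the log2 scale, with 15.01 ± 0.13 CPM in the mutant where the wild type had 794 ± 35.5 CPM, and Mycth_112050 fell by 4.23. The GH43 gene Mycth_2072383 gave −2.53, and Mycth_116553 gave −1.12, a smaller deletion effect than its −1.88 at 4 h. The other GH43 gene of the list, Mycth_2064169, was called higher in ΔMttrc-1 at 6 h (1.35), with 59.0 ± 1.68 CPM against 23.0 ± 1.75 CPM. None of the 12 had a deletion effect at 6 h as deep as that of Mycth_100068 (−6.57), which was picked for that loss.

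On starch 1 of the 12 genes was called lower, against 3.86% of all tested genes, and 1 higher, against 4.12%. The median of the list was −0.07, beside −0.01 for all genes. Mycth_2064169 was the gene called lower (−1.41), and Mycth_105128, of carbohydrate esterase family 3, was the one called higher (1.10), with 263 ± 6.81 CPM in ΔMttrc-1 against 123 ± 3.39 CPM in MtWT. The remaining listed gene, the xylanase gene Mycth_2121801, reached no more than 0.360 CPM in any library and was not tested.

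**Figure D3:**
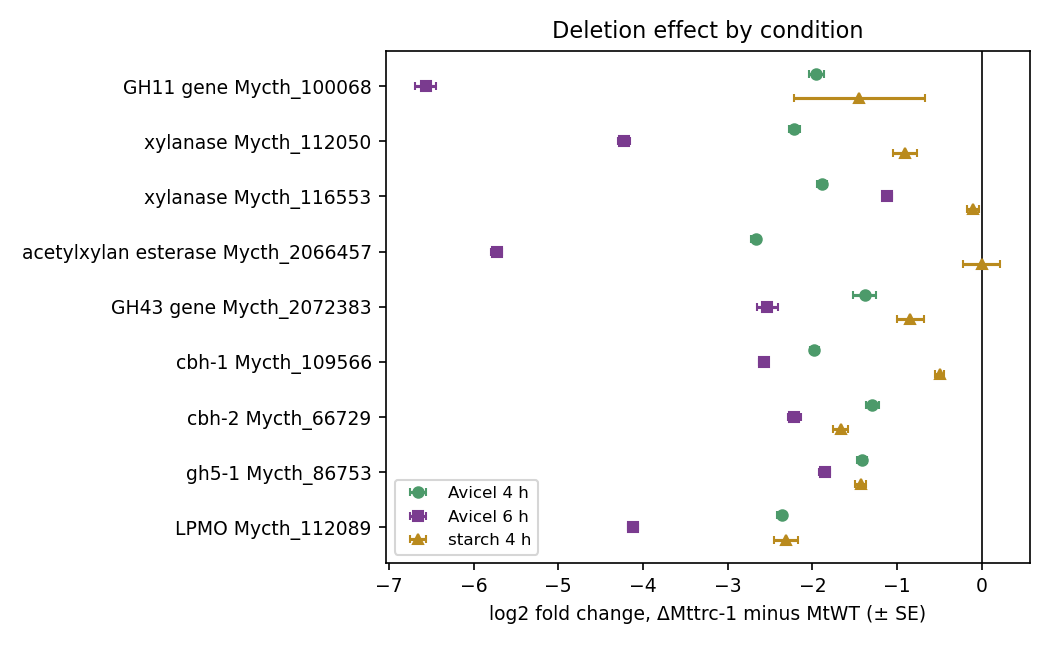
Log2 fold change of ΔMttrc-1 against MtWT (± SE, edgeR, 3 libraries a group) for Mycth_100068, the 4 listed xylan genes that were called lower on Avicel, and 4 cellulose genes, after 4 h on Avicel (circles), 6 h on Avicel (squares) and 4 h on starch (triangles). Among the genes drawn, Mycth_100068 is near the others at 4 h on Avicel (−1.95). It is farthest left at 6 h (−6.57), the loss for which it was picked, and its starch value (−1.45) has the widest error. Not drawn is Mycth_80312, which had the lowest value of the 11 cellulose genes the study followed at 4 h (−4.23) and at 6 h (−5.24) on Avicel.

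The response of the listed xylan genes to Avicel in MtWT was uneven. Against starch, 7 of the 12 were called higher at 4 h on Avicel and 1 lower, where 9.95% and 9.8% of all tested genes were. The list's median was 1.26, beside −0.06 for all genes. Acetylxylan esterase Mycth_2066457 (9.45) and the xylanase gene Mycth_112050 (8.10) had the largest values. Both were below the 12.36 of Mycth_100068, which was picked for its Avicel induction. At 6 h, 8 were called higher and 2 lower, against 13% and 10.5% of all tested genes. The genes called lower were Mycth_105128 (−1.86) and Mycth_2112181 (−1.31), described as a tannase and feruloyl esterase. The β-xylosidase gene Mycth_104628, which would act on the products of a xylanase, passed the thresholds at neither time (0.04 and 0.41). In ΔMttrc-1, 8 were called higher and 1 lower at 4 h, against 8.55% and 8.42% of all tested genes, and 7 higher and 1 lower at 6 h, against 6.19% and 6.88%.

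Over time on Avicel, the GH43 gene Mycth_2072383 was the only one of the 12 called higher at 6 h than at 4 h in MtWT (1.27), where 8.4% of all tested genes were, and none was called lower, where 5.67% were. In ΔMttrc-1, 3 of the 12 were called lower at 6 h, against 9.55% of all tested genes, and none higher, against 9.44%. These were acetylxylan esterase Mycth_2066457 (−2.57), the xylanase gene Mycth_112050 (−2.17) and Mycth_2119719 (−1.45) of carbohydrate esterase family 15. Their values were all smaller in size than the −4.71 of Mycth_100068 over the same step. In the test of the difference itself, the deletion effect was lower at 6 h than at 4 h for 5 of the 12 and higher for none, where 11.9% and 10.6% of all tested genes were called. Not all of the 5 were lower in ΔMttrc-1 at 4 h. The effects at 4 h and 6 h were 1.24 and −0.28 for Mycth_101800, and 0.89 and −0.85 for Mycth_2119719. The deletion effect was lower at 4 h on Avicel than on starch for 3 and higher for 2, where 10.2% and 9.18% were.

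For the 11 cellulose genes the study followed, picked on these same libraries and so no independent evidence of direction, 11 were called lower in ΔMttrc-1 at 4 h on Avicel, against 7.42% of all tested genes, and 10 at 6 h, against 12.9%. On starch 6 were called lower, against 3.86%, and 1 higher, against 4.12%. Some of the 6 rest on low levels. In MtWT against ΔMttrc-1 on starch, Mycth_112089 averaged 4.58 against 0.928 CPM and Mycth_110651 1.21 against 0.204 CPM. Mycth_92668 averaged 0.727 against 0.235 CPM, and its libraries overlapped. The median log2 fold changes of the 11 genes were −1.98 at 4 h, −2.21 at 6 h and −1.43 on starch. The value of Mycth_100068 was close to that median at 4 h. At 6 h, the time of the loss it was picked for, its value was lower than each of the 11. The lowest of these was −5.24 for the lytic polysaccharide monooxygenase (LPMO) gene Mycth_80312. LPMOs cut crystalline polysaccharide chains by oxidation.

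The pattern of Mycth_100068 over the 18 libraries was compared with that of each gene that reached a mean of 10 CPM in at least 1 group, 7111 genes in all counted without it. The measure was Pearson's r of log2 CPM, and the points share carbon source and strain, so that many genes come out alike. The most alike were Mycth_2303045 (r = 0.990), for which no description was at hand, and Mycth_2051636 (0.989), described as a prolyl 4-hydroxylase alpha subunit. Next came the xylanase gene Mycth_112050 (0.989), Mycth_111088 (0.988), described as a GH61 family protein, the family now counted among the LPMOs, and Mycth_79765 (0.987), with no description at hand. Acetylxylan esterase Mycth_2066457 was the 7th and cbh-1 the 8th in this order. In all, 61 genes had an r above 0.95, among them 8 of the 11 cellulose genes and 2 of the 13 xylan genes. Ranked by Spearman's rho instead, the 5 most alike shared 0 genes with these 5, so the order within the group of alike genes depended on the measure. With a prior count of 0.5 in place of 2 the same 5 genes led.

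The genes most alike were also high in MtWT on Avicel and low on starch, with a smaller range. The RPKM of Mycth_2303045 was 3496 ± 117 in MtWT at 4 h, 599 ± 57.2 in ΔMttrc-1 at 4 h, 93.9 ± 1.96 in ΔMttrc-1 at 6 h and 3.69 ± 0.33 in MtWT on starch (SD, n = 3 each). For Mycth_112050 the same groups stood at 666 ± 36.4, 146 ± 5.52, 49.2 ± 2.02 and 3.56 ± 0.67 RPKM. Mycth_2051636 was less abundant than both in each of these groups, at 39.7 ± 3.22, 17.8 ± 3.08, 4.38 ± 0.61 and 0.114 ± 0.119 RPKM. Between 4 h and 6 h in MtWT, Mycth_2303045 and Mycth_111088 had lower mean RPKM at the later time, 1881 ± 73.2 for the former and 1156 ± 38.6 against 1985 ± 77.4 for the latter. The mean RPKM of Mycth_100068, Mycth_112050, Mycth_2051636 and Mycth_79765 was not lower at 6 h. For Mycth_100068 and Mycth_112050 this turned with TMM scaling, which gave log2 changes over time of −0.10 and −0.16.

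**Figure D4:**
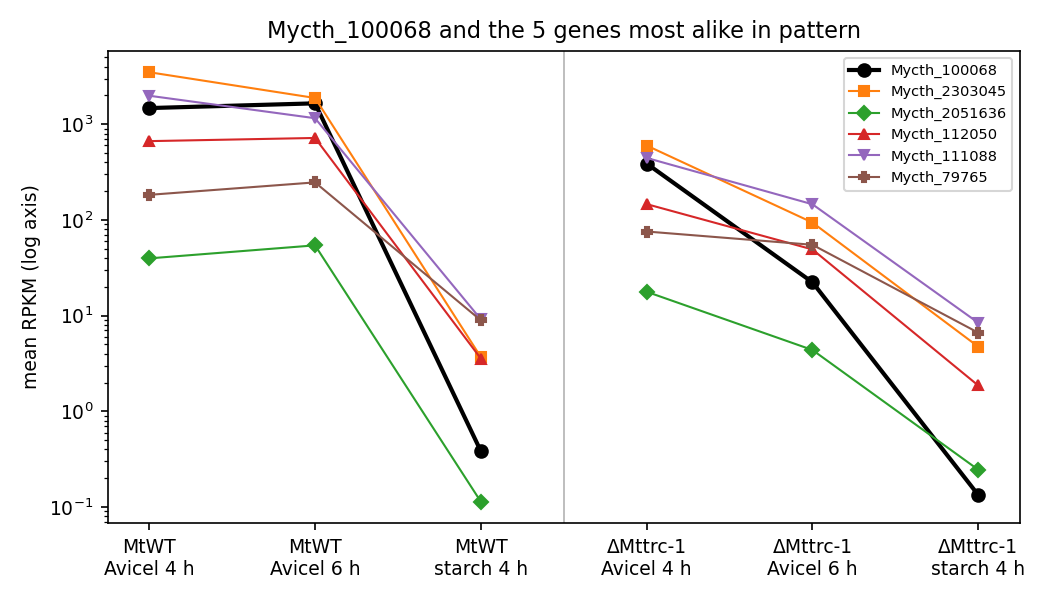
Mean RPKM (log axis) of Mycth_100068 (black) and the 5 genes with the highest Pearson correlation of log2 CPM to it, in 6 groups of 3 libraries, with MtWT on the left and ΔMttrc-1 on the right of the grey line. All 6 genes have their lowest means on starch and a lower mean in ΔMttrc-1 at 6 h than at 4 h, and the step from 4 h to 6 h in ΔMttrc-1 is steepest for Mycth_100068, from 388 to 22.3 RPKM.

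The 61 genes with an r above 0.95 were chosen on the same libraries, and Mycth_100068 was itself picked for its loss at 6 h. Its place among them at 6 h is therefore a description, set in part by that choice. Against these 61 genes, Mycth_100068 was ordinary at 4 h and at the edge at 6 h. In the 4 h deletion comparison 18 of the 61 had a lower log2 fold change, and their median was −1.27. In the 6 h comparison none of the 61 was lower than Mycth_100068, and their median was −2.21, with the lowest at −5.73. The difference between the 6 h and the 4 h deletion effect was −0.63 at the median of the 61, and none reached the −4.61 of Mycth_100068. In the step from 4 h to 6 h in ΔMttrc-1, 1 of the 61 fell further than Mycth_100068, by −5.09 beside −4.71.

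Of the genes that lie beside Mycth_100068 in the order of the RefSeq assembly ASM22609v1, only those on one side could be tested. These showed no fall of this size. On one side, Mycth_114691 had group means from 18.5 to 40.4 CPM, and its log2 fold changes in ΔMttrc-1 were −0.48 at 4 h on Avicel, −0.05 at 6 h and 0.37 on starch, none of them past the thresholds. The next gene on that side, Mycth_47625, had group means from 13.1 to 24.6 CPM and log2 fold changes of −0.80, −0.48 and −0.28, also not past them. On the other side, Mycth_2058599 had 0 counts in every library, and Mycth_64530 reached no more than 0.621 CPM in any library, so neither was tested.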

How the data were processed

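RNA of 18 mycelium libraries was sequenced as paired-end reads. The authors mapped them against predicted transcripts with TopHat2 2.0.8b, kept reads unique to 1 gene and counted these with HTSeq 0.5.4p2, and the raw counts were deposited. These versions are from the submitters' processing notes, and the study's methods name others. Genome build and strand setting were not given in the sources used here, and antisense reads could not be told apart. Reads shared with a near-identical gene would be missing from the counts, which was not tested. The authors also deposited RPKM values, in which each count is scaled by gene length and library total, and columns of their own comparisons, which were not used. The length implied for Mycth_100068 was 837 bases. Groups came from the sample titles, and the label descriptions of MtWT replicate 3 repeat the name of replicate 2.

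The count model was fitted by edgeR 4.0.16 in R 4.3.3 (TMM, filterByExpr, robust glmQLFit and glmQLFTest, 6 groups fitted together, prior count 2), and p-values were adjusted by Benjamini-Hochberg over 8573 genes. A gene was called at an adjusted p under 0.05 and an absolute log2 fold change over 1. Standard errors were taken as the log2 fold change over the square root of F and are approximate. Tested on simulated counts, the script called most of the genes changed by known folds in a single group. Folds as small as that of Mycth_100068 on starch, and differences between deletion effects, were not part of this check. Alternatives used limma 3.58.1, on log2(RPKM + 1), and DESeq2 1.42.0. Total counts were 17250057 to 24387079.

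Mycth_100068, the gene lists and the tests were chosen with earlier results of these data known. The genes named are Mycth_100068, the listed xylan, cellulose, starch and control genes, the 5 genes most alike in pattern, and 2 neighbours on either side in the order of ASM22609v1, which matched 9086 of 9109 genes and was used for order only. Genes chosen by protein likeness to Mycth_100068 were not analysed here.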

Additional observations from a re-analysis of the deposited data

Results flagged for a closer look

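Among the genes of the xylan list, 8 had a deletion effect that differed between times or carbon sources by edgeR's test of the difference itself, in 10 differences in all. For Mycth_100068 the same differences are given above as a description.

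Between 6 h and 4 h on Avicel, the deletion effect on the log2 scale was lower at 6 h for acetylxylan esterase Mycth_2066457 (−3.06, edgeR adjusted p = 4.24e-21), the xylanase gene Mycth_112050 (−2.01, 3.11e-15), Mycth_2119719 of carbohydrate esterase family 15 (−1.74, 5.02e-06), the GH30 gene Mycth_101800 (−1.52, 0.000317) and the GH43 gene Mycth_2072383 (−1.15, 7.42e-06). These are 5 of 12 tested genes, and none was called in the other direction, where 11.9% and 10.6% of all tested genes were. The effects of Mycth_2119719 were 0.89 at 4 h and −0.85 at 6 h, neither past the fold threshold, at no more than 9.57 CPM in any library. Those of Mycth_101800 were 1.24 at 4 h, called higher, and −0.28 at 6 h, not called, at no more than 6.56 CPM.

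Between 4 h on Avicel and starch, the deletion effect was lower on Avicel for Mycth_2066457 (−2.67, edgeR adjusted p = 4.40e-10), the xylanase gene Mycth_116553 (−1.78, 3.29e-15) and Mycth_112050 (−1.31, 2.52e-07), against 10.2% of all tested genes. It was higher on Avicel for the GH43 gene Mycth_2064169 (1.99, 1.33e-11) and for Mycth_103032 (1.08, 0.000191), described as an arabinan endo-arabinosidase, against 9.18%. The effects of Mycth_103032 were 0.39 at 4 h on Avicel and −0.69 on starch, neither past the fold threshold.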

How the results depend on the processing

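The deletion effect on Mycth_100068 at 4 h on Avicel stayed past the thresholds in all 14 alternatives, from −1.99 to −1.89, a range set by leaving out single libraries, with adjusted p from 1.10e-222 (DESeq2) to 1.52e-08 (edgeR's glmTreat). On starch it ran from −2.51 to −0.50 when single libraries were left out, with edgeR adjusted p from 0.0019 to 0.653. It passed the thresholds in 2 of 13 alternatives, without MtWT replicate 1 (−1.998) and with DESeq2 (−1.49, adjusted p = 0.0341). Limma on log2(RPKM + 1) gave −0.26 and could not reach the fold threshold at these levels. A fit of the starch groups alone gave no value, since the low-count filter then removed the gene.

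Among the described values, library totals in place of TMM gave 0.16 for 6 h against 4 h in MtWT, −4.12 for the same step in ΔMttrc-1, −6.21 for the 6 h deletion effect and −4.28 for its difference from 4 h. Leaving out single libraries moved the difference between the deletion effects on Avicel at 4 h and on starch from −0.50 to between −1.46 and 0.55. It turned positive without ΔMttrc-1 starch replicate 1 (0.55) or MtWT starch replicate 1 (0.05). In the same way Avicel against starch ran from 11.52 to 12.92 in ΔMttrc-1 at 4 h, from 6.81 to 8.20 at 6 h, from 11.81 to 13.31 in MtWT at 4 h and from 11.71 to 13.21 at 6 h. These ranges rest on starch libraries with 0 to 15 counts of the gene.

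The listed xylan genes called lower were 4 at 4 h on Avicel in every alternative, 3 or 4 at 6 h, and 1 or 2 on starch, with 2 without ΔMttrc-1 replicate 1 or MtWT replicate 3. Same-numbered replicates did not deviate together (r from −0.03 to 0.07), so the numbers were not taken as pairs. With the replicate block the effect on Mycth_100068 was −1.95 at 4 h on Avicel and −1.45 on starch (edgeR adjusted p = 4.22e-11 and 0.139), and the genes called over the whole table numbered 1135, 1842 and 678 in place of 1136, 1843 and 684.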

Other observations

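The starch genes the study followed, picked on these libraries, gave values opposite to Mycth_100068 across carbon sources. In MtWT the glucoamylase gene Mycth_72393 and the α-glucosidase gene Mycth_2303089 were called lower on Avicel than on starch at both times, with edgeR log2 fold changes whose medians were −4.88 at 4 h and −3.36 at 6 h. In ΔMttrc-1 on starch both were called lower than in MtWT (−1.53 for Mycth_72393 and −2.51 for Mycth_2303089). At 6 h on Avicel Mycth_2303089 was called higher in ΔMttrc-1 (1.32) and Mycth_72393 lower (−1.32).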
